A study of Mus musculus with 12 samples.

Results

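Aerocytes are the capillary endothelial cells of the lung alveolus that are built for gas exchange, and 2740 nuclei of this kind were found among 47319 nuclei that passed the quality limits (5.79%) in 12 mouse lung libraries. They were chosen by measured values: a nucleus had 200 to 6000 genes and at most 5% of its UMIs (unique molecular identifiers, each counting 1 captured RNA molecule) from mitochondrial genes, held at least 3 UMIs over at least 2 of 7 aerocyte genes (Ednrb, Edil3, Slc5a12, Tmeff2, Dpysl5, Chst1 and Lmntd1), and held more UMIs from these than from 10 genes of other endothelial cells (Kit, Glp1r, Bmp6, Vwf, Slc6a2, Gja5, Mmrn1, Itga8, Scube2 and Rtkn2). The levels of these 17 genes in the selected nuclei are therefore a description and were given no test.

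The alveolar capillary bed of the mouse is made of a pair of intermingled endothelial cell types. Aerocytes are large, thin and branched, lie against alveolar type 1 (AT1) cells, carry carbonic anhydrase 4 and the endothelin B receptor, and depend on VEGFA that reaches them from the AT1 cell through the receptor Kdr. General capillary cells express Kit, Gpihbp1 and the apelin receptor, act as the progenitor of the capillary bed after injury and can give rise to aerocytes. EphB4 is a receptor tyrosine kinase known best as a marker of venous endothelium, and its membrane-bound ligand ephrin-B2 (Efnb2) marks arterial endothelium.

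The lungs came from C57BL/6J mice that received bleomycin, a drug that injures the alveolar epithelium and leads to fibrosis, or PBS into the trachea at 7 weeks of age. NVP-BHG712, an inhibitor of the EphB4 kinase, or its vehicle of N-methyl-2-pyrrolidone and PEG300 was then given by oral gavage each day for 5 days starting on day 5, and lungs were collected on day 14. The 4 groups, named as in the labels, were PBS_Vehicle, PBS_NVP-BHG712, Bleo_Vehicle and Bleo_NVP-BHG712, with 3 mice and 3 libraries each, and no group carried a deletion or transgene. Nuclei were released from frozen, PBS-perfused lung, sorted as DAPI-positive events with no gate for endothelium and sequenced from the 3′ end of the transcripts. The values below are of RNA captured with nuclei, and include mitochondrial RNA and RNA of other cells. The Bleo_NVP-BHG712 libraries were all labelled run 4, the Bleo_Vehicle libraries batch 6 or 7, and the PBS libraries run 1, 2 or 3, so in every comparison with a bleomycin group the run and the group cannot be told apart.

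The libraries held 3556084 to 61947690 UMIs and 1179 to 13277 passing nuclei, with a median of 1079 to 5398 UMIs per passing nucleus. No library was left out. Between libraries, 56 of 66 pairs shared a cell barcode, at most 34 and at most 0.845% of the smaller library, and 1 barcode was an aerocyte nucleus in both libraries of a pair.

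The aerocyte nuclei held 500 to 33197 UMIs (median 2836) and together 9716705 UMIs, from 120077 to 3217095 per library. A nucleus carried 3 to 152 UMIs of the 7 selecting genes (median 14) over a median of 4 genes, 397 nuclei carried only 2 of the genes and 85 carried all 7. At the edge of the rule stood 156 nuclei with exactly 3 such UMIs and 146 with 4, and just outside it stood 149 nuclei with 2 UMIs over 2 of the genes, 496 with at least 3 UMIs on only 1 of them, 30 with a tie between the lists and 427 with more UMIs from the opposing list. No UMI of the opposing list was present in 1572 members.

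Edil3, which encodes a secreted integrin-binding matrix protein, was detected in 83.8% to 97.1% of the aerocyte nuclei of a library and in 3.58% to 10.8% of its other nuclei. Lmntd1 was detected in 51.5% to 96.7% of them, against 1.45% to 4.43% of other nuclei, and Tmeff2, which encodes a transmembrane protein with follistatin-like domains, in 54.9% to 86.5%, against 1.69% to 4.79%. Ednrb, the endothelin B receptor that clears endothelin from the lung circulation, was detected in only 16.2% to 66.7% of the aerocyte nuclei, and in 0.267% to 1.44% of other nuclei, at a median of 1632.5 to 4174 UMIs per aerocyte nucleus and 1079 to 5398 per passing nucleus. In CPM (the UMIs of a gene in the aerocyte nuclei of a library, scaled to a fixed total of all their UMIs), Ednrb was at 386, 313 and 249 in the PBS_Vehicle libraries, at 361, 282 and 294 in PBS_NVP-BHG712, at 92.3, 233 and 266 in Bleo_Vehicle and at 258, 327 and 322 in Bleo_NVP-BHG712. The lowest of these values was that of Bleo_Vehicle replicate 1, and it rested on 16 UMIs.

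Promoters (RefSeq, GRCm38.p6, 250 bases before to 50 bases after the start of the gene) were read for 5 genes of the rule, 5 aerocyte markers outside it, Rgs6 and Kif26b, because ETS-family factors such as Erg and Fli1 bind many endothelial promoters. Both strands were searched for the ETS core letters CCGGAAG and CAGGAAG, which do not overlap each other, and 4 of the 12 promoters held a match. The same letters were present in 20.9% of 27025 mouse promoters of this length, CCGGAAG in 9.12% and CAGGAAG in 12.96%. A match is a run of letters and not evidence of binding. The promoters shown are those of Car4, the marker gene outside the rule with the best known aerocyte role (chr11:84957504-84957803, plus strand), Lmntd1, a gene of the rule (chr6:145434876-145435175, minus strand), and Kif26b, the gene on which the comparisons between groups turn (chr1:178528875-178529174, plus strand). Capitals mark the ETS letters on either strand, and the Kif26b window holds neither run. Edil3, Slc5a12 and Tbx2 were not searched.
Car4: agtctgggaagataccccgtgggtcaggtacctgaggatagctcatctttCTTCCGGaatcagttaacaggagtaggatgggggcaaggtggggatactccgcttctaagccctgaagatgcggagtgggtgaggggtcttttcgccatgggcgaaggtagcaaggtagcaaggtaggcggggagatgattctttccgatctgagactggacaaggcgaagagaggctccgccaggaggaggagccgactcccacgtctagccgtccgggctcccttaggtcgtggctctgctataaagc
Lmntd1: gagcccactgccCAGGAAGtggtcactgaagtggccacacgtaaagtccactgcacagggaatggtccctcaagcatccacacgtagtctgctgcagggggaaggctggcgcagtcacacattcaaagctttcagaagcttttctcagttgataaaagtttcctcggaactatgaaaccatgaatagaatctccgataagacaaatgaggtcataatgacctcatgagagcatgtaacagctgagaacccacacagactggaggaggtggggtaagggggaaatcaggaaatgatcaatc
Kif26b: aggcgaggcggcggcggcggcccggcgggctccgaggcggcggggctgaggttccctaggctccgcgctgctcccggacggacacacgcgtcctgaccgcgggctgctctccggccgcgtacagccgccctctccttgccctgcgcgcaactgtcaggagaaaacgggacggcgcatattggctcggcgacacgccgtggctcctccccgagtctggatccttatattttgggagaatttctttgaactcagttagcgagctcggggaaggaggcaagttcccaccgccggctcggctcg
The GC content of these windows was 57.3% for Car4, 49.0% for Lmntd1 and 68.3% for Kif26b, against a median of 52.7% over all promoters.

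The label was next checked on genes that the rule had not used. General capillary nuclei, chosen in the same way with Kit, Glp1r, Gpihbp1, Plvap and Aplnr, were compared with the aerocyte nuclei of the same libraries by edgeR's quasi-likelihood test with the library as a block, Benjamini-Hochberg adjustment and a threshold of 0.05. At least 20 nuclei of both kinds were present in 6 libraries (PBS_Vehicle 1 and 2, PBS_NVP-BHG712 1 and 2, Bleo_Vehicle 2 and 3), and 581 general capillary nuclei were found in all 12. Of 5310 genes tested, 1177 were called (22.2%), 627 higher and 550 lower in aerocyte nuclei. Of 10 aerocyte markers outside the rule, 7 could be tested and 7 were higher, with a median log2 difference of 3.07 against 0.03 over all genes tested; Apln, Rprml and Cdkn2b did not pass the count filter.

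Levels in this comparison are CPM on library sizes normalized by TMM, with SD over the 6 libraries. Car4, which interconverts carbon dioxide and bicarbonate on the capillary surface, stood at 619 ± 102 CPM in aerocyte nuclei and 49.2 ± 18.4 CPM in general capillary nuclei (n = 6), a log2 difference of 3.68 ± 0.17 (SE; edgeR adjusted p = 1.6e-13). Kdr, the main VEGFA receptor, stood at 651 ± 134 CPM against 73.05 ± 34.3 CPM, a log2 difference of 2.98 ± 0.15 (edgeR adjusted p = 1.0e-12). Tbx2, a T-box transcription factor, stood at 329 ± 52.3 CPM against 33.3 ± 20.7 CPM, a log2 difference of 3.07 ± 0.20 (edgeR adjusted p = 4.1e-11). For each of the 3 genes the lowest aerocyte library lay above the highest general capillary library. On the log2 scale Prx, a scaffold protein of the cell cortex, was higher by 2.17 ± 0.15, Emp2, a membrane protein of the tetraspan family, by 3.72 ± 0.38 and Pmp22 by 1.72 ± 0.22, each in 6 of 6 libraries. Fibin was the other marker called, with 27.2 to 79.99 CPM in aerocyte nuclei and 0 to 4.23 CPM in general capillary nuclei. In the other direction, all 6 testable general capillary genes that neither gate used were lower in aerocyte nuclei, with a median log2 difference of -2.94.

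**Figure D1:**
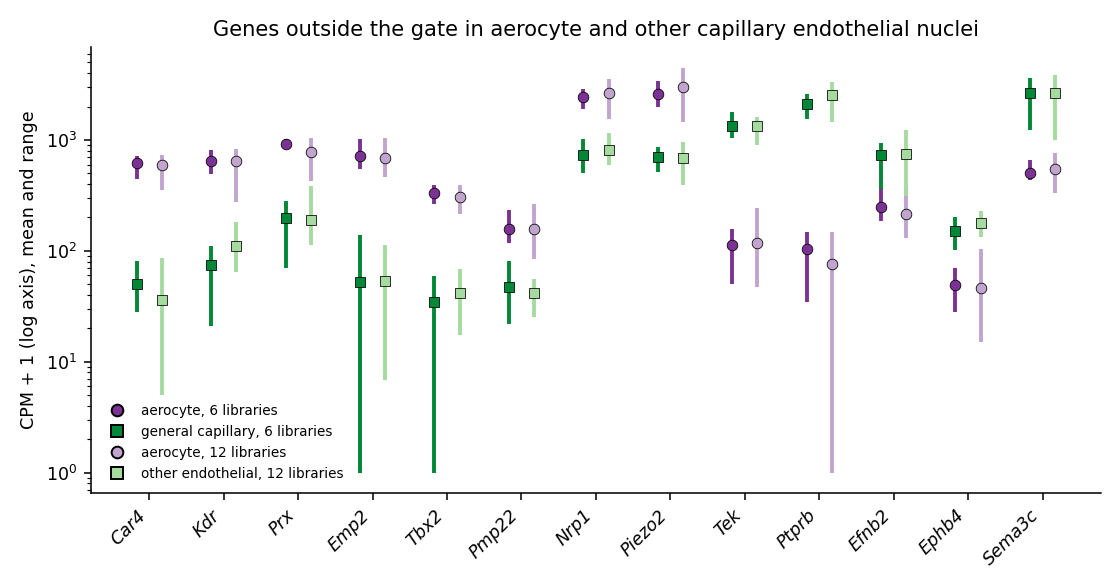
Level of 13 genes, in CPM plus 1 on a log axis, in aerocyte (circles) and comparison nuclei (squares): dark colours for general capillary nuclei of the same 6 libraries, pale colours for other endothelial nuclei of 12 libraries. Symbols are means and vertical lines run from the lowest to the highest library. Car4, Kdr, Prx, Emp2, Tbx2, Pmp22, Nrp1 and Piezo2 sit higher in aerocyte nuclei, and Tek, Ptprb, Efnb2, Ephb4 and Sema3c sit lower.

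Rgs6, a regulator that shortens G protein signaling, stood at 4895 ± 855 CPM in aerocyte nuclei and 71.1 ± 48.7 CPM in general capillary nuclei, a log2 difference of 5.96 ± 0.19 (edgeR adjusted p = 6.5e-16). Pde8b, a phosphodiesterase that breaks down cyclic AMP, stood at 1419 ± 185 CPM against 48.9 ± 18.2 CPM, and Tbx3os1, a noncoding gene beside Tbx3, at 986 ± 180.2 CPM against 34.3 ± 14.7 CPM. Tln2, which links integrins to actin, stood at 357 ± 94.2 CPM against 11.7 ± 12.9 CPM. Rspo3, Scrn1, Fibin, Fndc1 and Rasa4 were also among the 10 largest rises, at means of 47.9 ± 9.94 CPM, 40.6 ± 5.79 CPM, 50.4 ± 21.1 CPM, 153 ± 31.2 CPM and 144 ± 45.7 CPM in aerocyte nuclei, and each had no UMI in at least 1 of the general capillary libraries, so no fold is given. Among the 10 largest falls were Npr3, the clearance receptor for natriuretic peptides (36.99 ± 27.1 against 904 ± 454 CPM), Myrip (19.7 ± 16.6 against 382 ± 130.4 CPM) and Itga6, the laminin-binding integrin alpha-6 chain (40.2 ± 20.8 against 867 ± 148 CPM). Plcb1, a phospholipase that acts below G protein-coupled receptors, stood at 313 ± 152 against 5447 ± 1470.2 CPM, and Cd93, an endothelial adhesion receptor, at 17.5 ± 12.4 against 343 ± 72.02 CPM. Mcf2l, Abcb1a, Acer2 and Ntn1 were at -4.11, -4.10, -3.80 and -3.80 on the log2 scale.

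By pathway, the VEGF genes were split. Of 8 tested, 2 were higher and 3 lower in aerocyte nuclei, where 22.2% of all 5310 genes were called, and the list's median log2 difference was -0.38 against 0.03 over all genes tested. The receptor Kdr and the coreceptor Nrp1 (2449 ± 347 against 727 ± 180.5 CPM) were higher. The ligands Vegfa (82.2 ± 44.6 against 357 ± 97.2 CPM) and Vegfc (25.5 ± 19.7 against 369.7 ± 212 CPM) and the receptor Flt1 (955 ± 162 against 1416 ± 386 CPM) were lower.

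The angiopoietin and Tie genes, which keep the capillary wall quiescent, were lower for 3 of 4 tested (median log2 difference -2.24). Here and for the lists below, 22.2% of all 5310 genes were called in either direction. Tek, the angiopoietin receptor Tie2, stood at 113 ± 40.7 CPM in aerocyte nuclei and 1340.1 ± 277 CPM in general capillary nuclei (log2 difference -3.55 ± 0.14, edgeR adjusted p = 1.4e-14). Ptprb, the phosphatase that dampens Tek, stood at 103 ± 50.5 against 2102 ± 353 CPM (-4.24 ± 0.27), and the receptor Tie1 was at -0.93 ± 0.16 on the log2 scale. Among Notch genes, 1 was higher (Rbpj, the nuclear effector, log2 difference 0.47 ± 0.15) and 3 were lower (the receptors Notch1 and Notch4 and the ligand Jag1, at -0.51, -1.22 and -1.31) of 8 tested. Among BMP and TGF-beta genes, 2 were higher and 5 lower of 14, with the coreceptor Tgfbr3 at 1.04, the target Id1 at 1.07 and the inhibitory Smad7 at -0.93.

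Of 18 Eph and ephrin genes, 7 passed the count filter, 1 was higher in aerocyte nuclei and 3 were lower, beside 22.2% of all genes called in either direction (median log2 difference -0.58). Ephb4 stood at 48.05 ± 14.2 against 151 ± 40.8 CPM in general capillary nuclei (log2 difference -1.77 ± 0.19, edgeR adjusted p = 1.7e-07) and Efnb2 at 249 ± 65.6 against 731 ± 252 CPM (-1.54 ± 0.13, edgeR adjusted p = 4.2e-09). Both genes were lower in aerocyte nuclei in 6 of 6 libraries. Epha4 was at -1.11 and Epha2, a receptor of the ephrin-A ligands, at 0.85 on the log2 scale.

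Flow and barrier genes went in both directions, with 5 higher and 2 lower of 12 tested. Beside each count in this paragraph stand the 22.2% of all 5310 genes called in either direction, and no list was tested as a set. The stretch-gated channel Piezo2 stood at 2600.3 ± 482 against 701 ± 152 CPM, and its relative Piezo1 at 80.6 ± 18.4 against 174 ± 80.5 CPM, aerocyte against general capillary nuclei. Of 5 leukocyte adhesion genes, 4 were higher, among them Cd34 (163 ± 25.9 against 41.9 ± 19.3 CPM) and Icam1 (126 ± 33.1 against 58.5 ± 28.5 CPM), and Lyve1 was lower (log2 difference -2.15). Of 10 basement membrane genes, 1 was higher, the laminin chain Lamc1 (1.46), and 2 were lower. Of 8 p53 target genes, 3 were higher, Cdkn1a among them (1.23), and of 7 interferon and antigen presentation genes, 3 were lower, H2-K1 among them (-0.71). None of 12 proliferation genes passed the count filter.

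Because general capillary nuclei were sparse, the aerocyte nuclei were also compared with 5782 other endothelial nuclei of all 12 libraries, which held at least 3 UMIs over at least 2 pan-endothelial genes making up at least 0.5% of their UMIs and no UMI of the 7 aerocyte genes. This comparison was added after the data were seen. Of 4802 genes tested, 2115 were called (44.0%), 1067 of them higher in aerocyte nuclei, and 6 of 6 testable markers outside the rule were higher, with a median log2 difference of 2.80 against 0.00 over all genes. Ephb4 was at -1.98 ± 0.13 and Efnb2 at -1.71 ± 0.14 on the log2 scale. Nos3, the endothelial nitric oxide synthase, was at 0 to 8.28 CPM in the aerocyte nuclei of the 12 libraries and at 52.98 to 174 CPM in the other endothelial nuclei. Edn1, the endothelin-1 precursor, was at 0 to 7.69 CPM and 28.3 to 110.4 CPM. For both genes the ranges of the libraries did not overlap.

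At least 2 UMIs of 15 pan-endothelial genes were found in 96.4% to 100% of the aerocyte nuclei of a library, against 21.99% to 54.5% of its other nuclei. RNA of other cells was present too. The summed level of 67 markers of 9 other classes of lung cells, counted in the aerocyte nuclei, was 3798, 1559 and 2551 CPM in PBS_Vehicle, 3826, 2270 and 2464 in PBS_NVP-BHG712, 2826, 4402 and 5814 in Bleo_Vehicle and 1699, 1885 and 1779 in Bleo_NVP-BHG712. The Bleo_NVP-BHG712 libraries lay below all 3 Bleo_Vehicle libraries, and in no group was the sum above 63.0% of that in the other nuclei of the same library. At least 3 UMIs over at least 2 markers of a single other class, blood cells left aside, were absent from 1118 of the 2740 nuclei. AT2 markers at this level were found in 70.7% of the aerocyte nuclei of Bleo_Vehicle replicate 3, and AT1 markers in 58.2% of those of PBS_Vehicle replicate 1.

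The 10 markers of macrophages and monocytes summed to 288 to 524 CPM in the Bleo_Vehicle libraries, 8.26 to 81.1 in Bleo_NVP-BHG712, 13.8 to 259 in PBS_Vehicle and 33.6 to 241 in PBS_NVP-BHG712. The AT2 list summed to 398 to 1997 CPM in Bleo_Vehicle and 283 to 428 in Bleo_NVP-BHG712, and the fibroblast list to 277 to 322 and 30.8 to 107. The AT1 list was at 1222 to 1246 and 983 to 1082 CPM. The 13 mitochondrial genes summed to 14590, 10615 and 6752 CPM in the aerocyte nuclei of the Bleo_Vehicle libraries and to 433 to 1128 CPM in the other 9 libraries. The 7 selecting genes moved the other way, with 3056, 3759 and 4370 CPM in Bleo_Vehicle, 6046, 7265 and 7155 in Bleo_NVP-BHG712, and 5466 to 7275 in the PBS libraries. The part of these differences in the results by group was not tested.

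**Figure D2:**
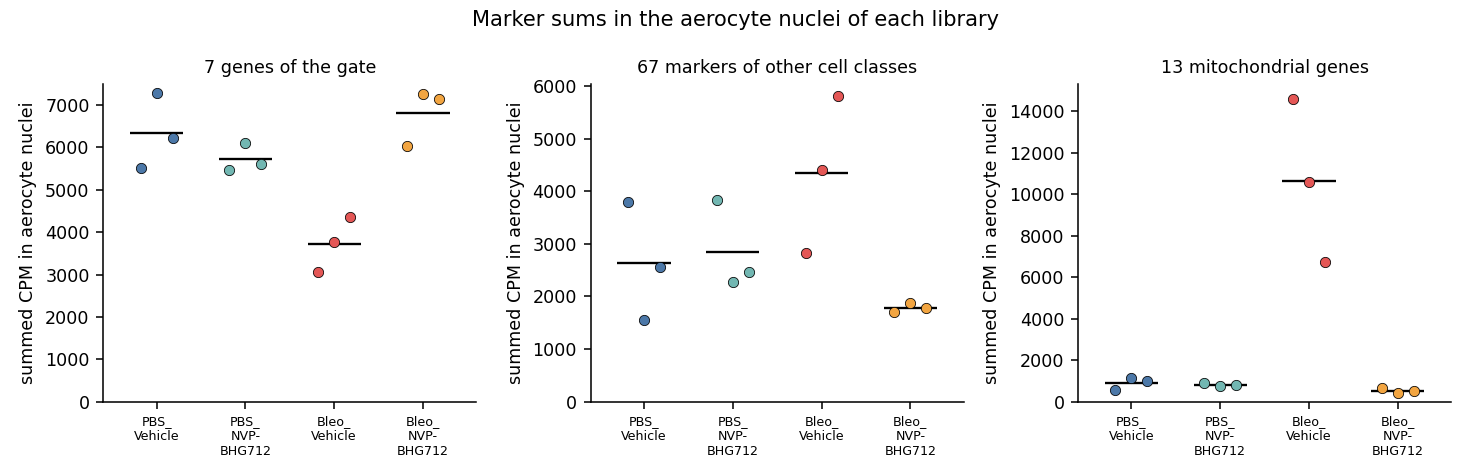
Summed level, in CPM of the aerocyte nuclei, of the selecting aerocyte genes, of other-class markers and of mitochondrial genes in each of the 12 libraries, by group; each point is a library and each horizontal line a group mean. The Bleo_Vehicle libraries sit at 3056 to 4370 CPM for the selecting genes, below the other 9, and at 6752 to 14590 CPM for mitochondrial genes, above them.

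The share of aerocyte nuclei among passing nuclei addressed whether the population shrank with bleomycin or changed with the inhibitor. It was 8.11% (95% exact Clopper-Pearson interval 7.26% to 9.03%), 4.24% and 4.30% in the PBS_Vehicle libraries, 7.96%, 5.79% and 4.56% in PBS_NVP-BHG712, 2.99% (2.33% to 3.78%), 4.42% and 5.65% in Bleo_Vehicle and 4.75%, 5.70% and 5.52% in Bleo_NVP-BHG712. The groups overlapped. Bleo_NVP-BHG712 stood 0.971 points above Bleo_Vehicle (2-sided exact permutation test, p = 0.3, adjusted p = 0.7), and the difference was -1.197 points for Bleo_Vehicle against PBS_Vehicle (exact permutation p = 0.7) and -0.987 points for the 6 bleomycin libraries against the 6 PBS libraries (exact permutation p = 0.286). With 3 libraries against 3 this test cannot go below 0.1, and with 6 against 6 not below 0.00216. The difference between the bleomycin groups was 0.289 points when Bleo_Vehicle 1 was left out and 1.62 when Bleo_Vehicle 3 was. That of bleomycin against PBS was -0.617, -0.561 and -0.530 points without Bleo_Vehicle 1, PBS_NVP-BHG712 1 and PBS_Vehicle 1. At its lowest with 1 library left out it was -1.30 points. Fewer nuclei of a kind and less RNA of its marker genes per nucleus cannot be told apart by a rule that counts UMIs, and the intervals cover counting error only.

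Since a deeper nucleus passes the rule more easily, every nucleus was also thinned to 1000 UMIs, which left out 7636 nuclei below that depth and kept 1971 of 39683 (4.97%). The shares were then 6.91%, 4.57% and 3.94% in PBS_Vehicle, 6.43%, 5.74% and 4.06% in PBS_NVP-BHG712, 2.34%, 3.67% and 4.16% in Bleo_Vehicle and 4.18%, 5.70% and 5.39% in Bleo_NVP-BHG712. Bleo_NVP-BHG712 and Bleo_Vehicle no longer overlapped, with 4.16% and 4.18% in their nearest libraries, and differed by 1.70 points (exact permutation p = 0.1, the smallest possible, adjusted p = 0.333). Taken as a share of nuclei with at least 2 pan-endothelial UMIs, they were also apart, at 18.5%, 14.75% and 16.4% in Bleo_NVP-BHG712 against 10.98%, 11.04% and 10.8% in Bleo_Vehicle (5.59 points, exact permutation p = 0.1, adjusted p = 0.5). Bleo_Vehicle and PBS_Vehicle overlapped at 1000 UMIs (-1.75 points, exact permutation p = 0.2). They did not overlap after thinning to 500 UMIs, with means of 1.45% and 3.09% (-1.64 points, exact permutation p = 0.1, adjusted p = 0.25). A further count left out aerocyte nuclei with markers of another class but kept all passing nuclei in the denominator. Bleo_Vehicle and PBS_Vehicle were then apart, at 1.52% and 2.94% (-1.42 points, exact permutation p = 0.1, adjusted p = 0.167). Bleo_NVP-BHG712 stood 2.61 points above Bleo_Vehicle (exact permutation p = 0.1, adjusted p = 0.167). This count took Bleo_Vehicle 3 from 750 to 72 aerocyte nuclei. The part of RNA from other cells in these shares was not tested. A stricter gate gave -2.17 points between Bleo_Vehicle and PBS_Vehicle, with overlap (exact permutation p = 0.3).

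**Figure D3:**
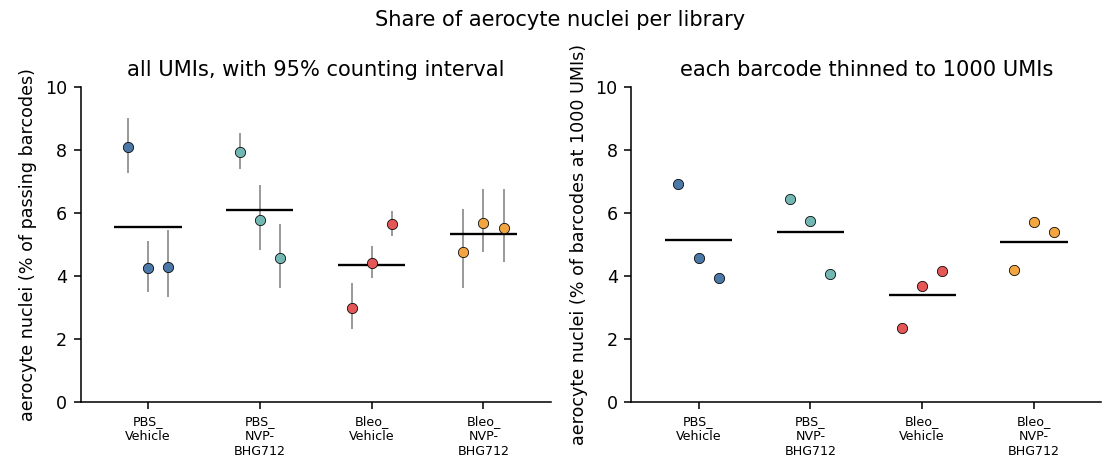
Share of aerocyte nuclei among passing nuclei, in percent, for each of the 12 libraries as counted and after thinning to 1000 UMIs, by group; each point is a library, vertical lines are 95% exact binomial intervals (left panel) and horizontal lines group means. As counted the Bleo_NVP-BHG712 mean was 5.32% and the Bleo_Vehicle mean 4.35%, with overlapping libraries, and after thinning they were 5.09% and 3.39%.

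To ask what the inhibitor changed in aerocyte nuclei of bleomycin-treated lungs, the aerocyte nuclei of a library were added up to 1 profile, and edgeR was run on the 12 profiles for 5229 genes. In the comparison of Bleo_NVP-BHG712 with Bleo_Vehicle, 73 genes were called (1.40%), 22 higher and 51 lower with the inhibitor, and 773 had an unadjusted p under 0.05. Of the 51 lower genes 10 were mitochondrial, out of 11 tested. Of the 22 higher genes, 0 were over 2 times higher in the other nuclei of these libraries than in aerocyte nuclei, and the median ratio of other to aerocyte nuclei was 0.210. Of the 41 lower genes that were not mitochondrial, 30 (73.2%) were over 2 times higher in other nuclei, with a median ratio of 3.11, against 10.8% of the tested genes. Of the 22 higher genes, 15 (68.2%) were over 2 times lower in other nuclei than in aerocyte nuclei, against 11.7% of the tested genes. The genes lower with the inhibitor were thus mostly genes of higher level in other nuclei. The genes higher with it were mostly genes of lower level there. The part of RNA from other nuclei in the lower calls and in the higher calls was not tested. In 1181 of the 5229 genes (22.6%) the libraries of the bleomycin groups lay apart, and only such genes could be named as large rises or falls.

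The count of called genes rested on single libraries. Leaving out PBS_Vehicle 1 gave 131 calls and PBS_Vehicle 3 gave 38, PBS_NVP-BHG712 2 gave 42, Bleo_Vehicle 1 and 2 gave 30 and 13, and Bleo_NVP-BHG712 1, 2 and 3 gave 11, 11 and 13. Without mitochondrial genes in the fit it was 14, and all 14 were among the 73: Kif26b, Fmo1, Arap2, St3gal6 and 9530026P05Rik were higher with the inhibitor, and Ism1, Lyz2, Arhgap15, Arhgap26, Arhgef26, Hivep3, Kalrn, AY036118 and Gm26561 were lower.

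**Figure D4:**
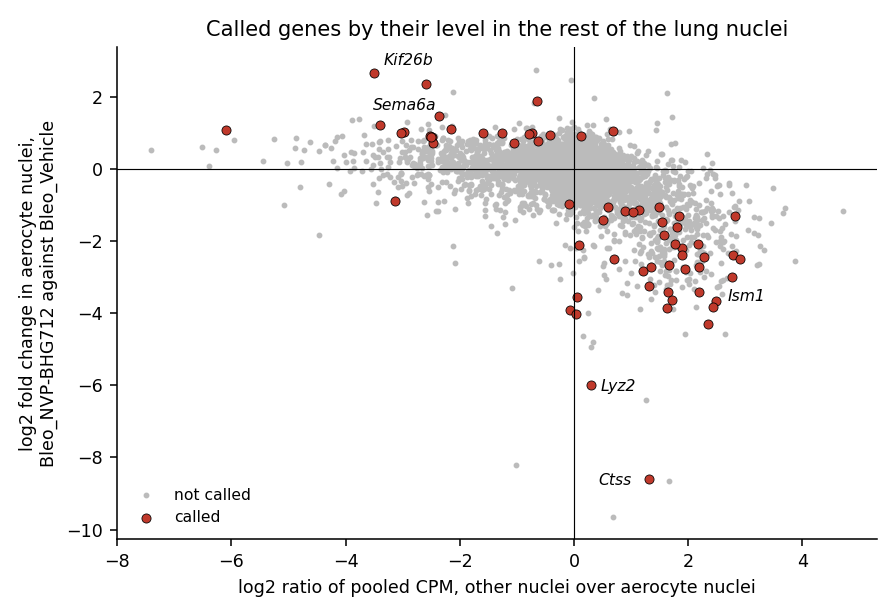
For each tested gene other than mitochondrial genes, the log2 ratio of its CPM in other nuclei to its CPM in aerocyte nuclei (x axis) and its log2 difference between Bleo_NVP-BHG712 and Bleo_Vehicle aerocyte nuclei (y axis), with called genes in red. Of the 41 called lower genes 30 lie at more than 2 times the aerocyte level in other nuclei, and none of the 22 called higher genes does. Of those 22 genes, 15 are over 2 times lower in other nuclei than in aerocyte nuclei.

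Kif26b, an atypical kinesin that binds microtubules and acts in cell polarity and adhesion (chr1:178529125-178939200, plus strand, whole gene; the promoter is printed above), stood at 284, 521 and 551 CPM in PBS_Vehicle, 279, 315 and 453 in PBS_NVP-BHG712, 58.4, 78.9 and 121 in Bleo_Vehicle and 520.2, 514 and 769 in Bleo_NVP-BHG712. All 3 Bleo_Vehicle libraries lay below the other 9. The level of Kif26b in other nuclei was 0.0879 times that in aerocyte nuclei, and the part of RNA from other nuclei was not tested. The log2 difference between Bleo_NVP-BHG712 and Bleo_Vehicle was 2.68 ± 0.32 (SE; edgeR adjusted p = 4.4e-04), and Kif26b was called in 23 of 23 alternatives, which comprised other tools, filters and gates and each library left out. It was also lower in Bleo_Vehicle against PBS_Vehicle, at -2.22 ± 0.32 (edgeR adjusted p = 0.00315), a comparison that shares the Bleo_Vehicle libraries, and it was called there in 23 of 23 alternatives. Between cell types, Kif26b stood at 280.3 ± 166 CPM in aerocyte nuclei and 16.9 ± 26.6 CPM in general capillary nuclei of the same 6 libraries (log2 difference 4.00 ± 0.54, edgeR adjusted p = 6.3e-04).

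Sema6a, a transmembrane semaphorin with a guidance role in vessels and axons, stood at 2531, 2769.8 and 3113 CPM in PBS_Vehicle, 2322, 2391 and 2203 in PBS_NVP-BHG712, 681, 1279.6 and 1842 in Bleo_Vehicle and 2938, 2870.0 and 3159 in Bleo_NVP-BHG712. The log2 difference between the bleomycin groups was 1.21 ± 0.25 (edgeR adjusted p = 0.037). Meis1, a homeobox transcription factor, stood at 797, 1060.3 and 1564 CPM in Bleo_Vehicle and 2774, 1862 and 2851 in Bleo_NVP-BHG712, a log2 difference of 1.10 ± 0.24 (edgeR adjusted p = 0.0435). Fmo1, a flavin-containing monooxygenase that oxidizes drugs, stood at 285, 429 and 549.6 against 839.6, 782 and 1019 CPM, a log2 difference of 1.02 ± 0.20 (edgeR adjusted p = 0.0282). These 3 genes were called in 15, 13 and 16 of 23 alternatives. Their levels in other nuclei were 0.0954, 0.226 and 0.126 times those in aerocyte nuclei. The PBS_Vehicle means of Meis1 and Fmo1 were 2064 and 839 CPM. Their Bleo_Vehicle means, at 1141 and 421 CPM, lay below those of every other group.

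Adam12, a metalloprotease, stood at 51.9, 93.1 and 67.3 CPM in Bleo_Vehicle and 365, 391 and 366 in Bleo_NVP-BHG712 (log2 difference 2.35 ± 0.47). Abi3bp, a matrix protein that binds collagen, stood at 32.4, 139 and 221 against 602, 529 and 559 CPM (1.90 ± 0.38). Arap2, a GTPase-activating protein of focal adhesions, Myo6, the myosin that moves toward the minus end of actin, and Mid2, a ubiquitin ligase, were higher by 1.01, 1.00 and 1.00 on the log2 scale. The edgeR adjusted p of these 5 genes lay between 0.0287 and 0.0487, and they were called in 10 to 16 of 23 alternatives. Their levels in other nuclei were 0.122 to 0.639 times those in aerocyte nuclei. The PBS_Vehicle means of Adam12, Abi3bp, Arap2, Myo6 and Mid2 were 258, 513, 1567, 616 and 530 CPM. Their Bleo_Vehicle means, at 70.8, 131, 1017, 359 and 296 CPM, lay below those of every other group.

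Among the genes lower with the inhibitor, Lyz2, the lysozyme of macrophages and AT2 cells, stood at 45.4, 234 and 284 CPM in Bleo_Vehicle and 0, 3.01 and 4.47 in Bleo_NVP-BHG712, where it rested on 2 UMIs. The ratio of UMIs, corrected for total UMIs, was 90.9-fold (95% counting interval 25.1 to 752). Ctss, cathepsin S of antigen-presenting cells, stood at 51.9, 59.96 and 70.3 against 0, 0 and 0 CPM, at least 15.5-fold lower when 3 UMIs over the group are allowed. Rplp1, a ribosomal stalk protein whose reads can also fall on near-identical pseudogenes, stood at 51.9, 39.4 and 56.99 against 0, 6.02 and 0 CPM, a ratio of 18.4-fold on 2 UMIs (counting interval 5.03 to 153). These 3 were called in 18 of 22, 14 of 22 and 12 of 19 alternatives. In the aerocyte nuclei of PBS_Vehicle, Lyz2 stood at 33.3, 7.09 and 7.34 CPM, and the macrophage and monocyte list as a whole is given above.

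Ism1, a secreted protein, stood at 38.9, 64.7 and 105 CPM in Bleo_Vehicle and 0, 9.03 and 4.47 in Bleo_NVP-BHG712 (log2 difference -3.65 ± 0.62, edgeR adjusted p = 0.0111). Fn1, fibronectin, stood at 188, 96.2 and 141 against 9.13, 0 and 22.3 CPM (-3.86 ± 0.77, edgeR adjusted p = 0.0365), and Fkbp5, a glucocorticoid-induced cochaperone, at 357, 227 and 144 against 9.13, 33.1 and 4.47 CPM (-3.64 ± 0.74, edgeR adjusted p = 0.0403). They were called in 16 of 22, 16 of 23 and 13 of 23 alternatives. Gria3, C7, Cacna1d and Arhgap15 lay between -4.30 and -3.40 on the log2 scale, and were called in 11 of 21, 10 of 22, 13 of 22 and 15 of 21 alternatives. Sparc, a collagen-binding matricellular protein, was the only called gene of 4 tested on the injury capillary list of 16 genes, beside 1.40% of all 5229 genes. It stood at 117, 67.8 and 84.99 CPM in Bleo_Vehicle and 9.13, 9.03 and 17.9 in Bleo_NVP-BHG712 (-2.82 ± 0.60, edgeR adjusted p = 0.0396). The median of the 4 tested genes was -2.46 against -0.02 over all genes. The part of RNA from other nuclei in these differences was not tested. Without the aerocyte nuclei that carried markers of another class, the count of called genes was 33, and 18 of the 73 were among them.

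**Figure D5:**
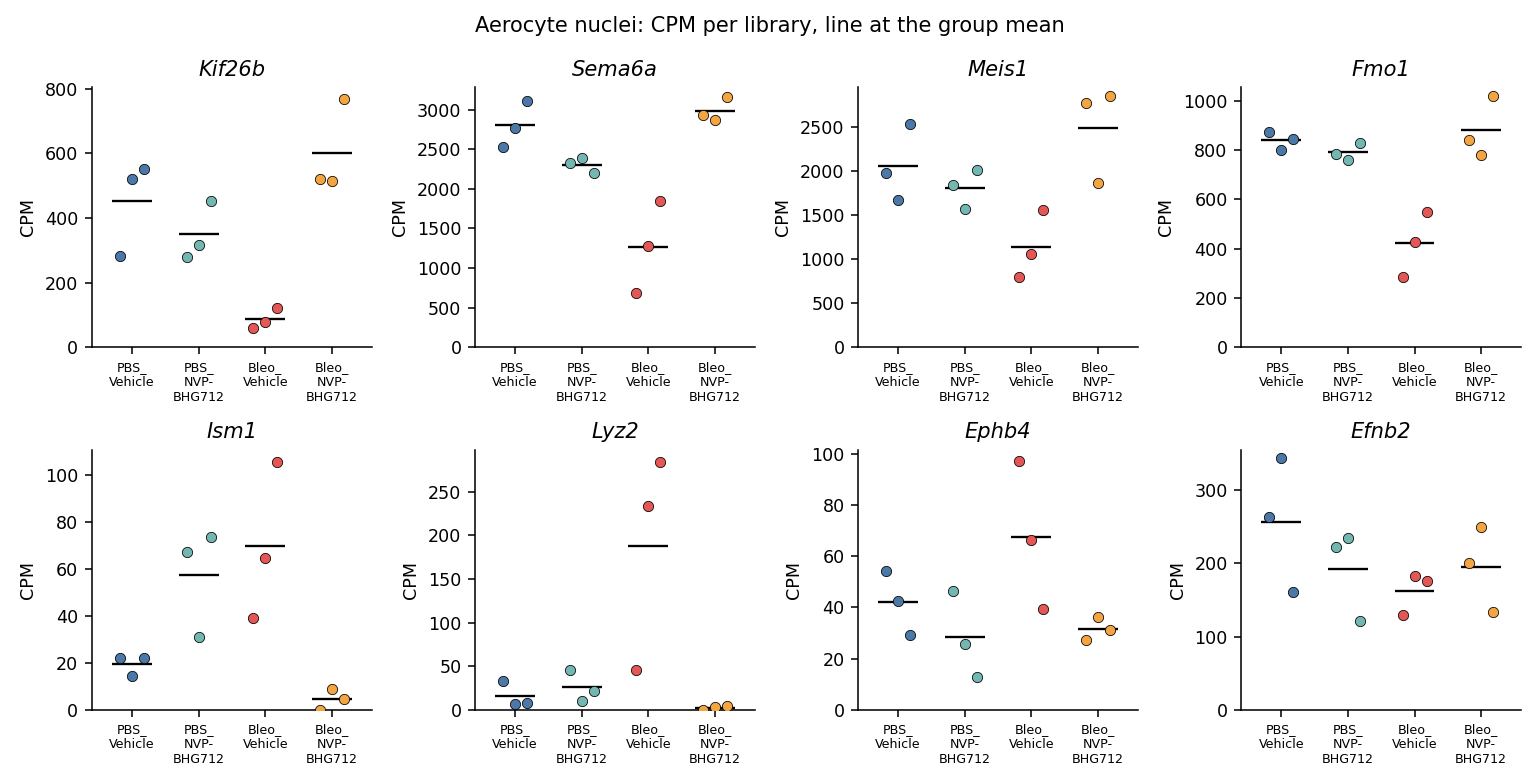
Level of Kif26b, Sema6a, Meis1, Fmo1, Ism1, Lyz2, Ephb4 and Efnb2 in the aerocyte nuclei of each of the 12 libraries, in CPM, by group; points are libraries and horizontal lines group means. Kif26b lies at 58.4 to 121 CPM in Bleo_Vehicle and at 279 to 769 CPM elsewhere, while the groups overlap for Efnb2.

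Bleomycin alone, in Bleo_Vehicle against PBS_Vehicle, gave 16 called genes of 5229 (0.306%), 14 higher and 2 lower, of which 10 of the higher were mitochondrial, and 473 genes had an unadjusted p under 0.05. Gas7, a cytoskeletal protein, stood at 22.2, 7.09 and 7.34 CPM in PBS_Vehicle and 97.3, 167 and 101 in Bleo_Vehicle (log2 difference 2.92 ± 0.57, edgeR adjusted p = 0.0465). Abca1, which exports cholesterol, stood at 50.3, 49.6 and 44.05 against 246, 119.9 and 128 CPM (1.67 ± 0.33, edgeR adjusted p = 0.0465), and Cmip, a signaling adaptor, at 194, 206 and 147 against 415, 418 and 323 CPM (1.04 ± 0.20, edgeR adjusted p = 0.0366). The genes were called in 13 of 22, 7 of 23 and 8 of 23 alternatives. Their levels in other nuclei were 3.83, 2.81 and 1.62 times those in aerocyte nuclei. Of the 4 called higher genes that were not mitochondrial, 2 were over 2 times higher in other nuclei, against 10.8% of the tested genes. The part of RNA from other nuclei in these calls was not tested. Kif26b was the only call left without mitochondrial genes in the fit. The count was 25 when PBS_NVP-BHG712 3 was left out, 10 when Bleo_Vehicle 2 was and 49 when Bleo_Vehicle 3 was.

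The aerocyte markers outside the rule gave no call among 7 tested in that comparison, where 0.306% of all 5229 genes were called. Their median log2 difference was -0.49 against -0.01 over all genes. Of these 7 markers, 3 had an unadjusted p under 0.05, as had 473 of all 5229 genes. Car4 stood at 682, 649 and 675 CPM in PBS_Vehicle, 599, 531 and 539 in PBS_NVP-BHG712, 331, 650.0 and 423 in Bleo_Vehicle and 411, 529 and 679 in Bleo_NVP-BHG712. Kdr stood at 769, 684 and 764 CPM in PBS_Vehicle, 735, 529 and 565 in PBS_NVP-BHG712, 259, 469 and 531 in Bleo_Vehicle and 502, 659 and 786 in Bleo_NVP-BHG712. The Kdr values of Bleo_Vehicle and PBS_Vehicle did not overlap, as for 15.1% of all tested genes, and the difference of -0.77 ± 0.23 on the log2 scale did not pass the test across all genes (edgeR adjusted p = 0.211).

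The inhibitor in PBS-treated lungs, PBS_NVP-BHG712 against PBS_Vehicle, gave 0 calls of 5229 genes (0%) by edgeR, 59 genes with an unadjusted p under 0.05 and 1 call by DESeq2. Bleomycin under the inhibitor, Bleo_NVP-BHG712 against PBS_NVP-BHG712, gave 0 calls (0%) by edgeR, 313 genes with an unadjusted p under 0.05 and 0 calls by DESeq2.

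The interaction, which asks whether the inhibitor's difference was the same with bleomycin as with PBS, gave 12 called genes (0.229%), 1 higher and 11 lower, 9 of them mitochondrial, and 555 genes with an unadjusted p under 0.05. Kif26b was the higher gene, at 3.03 ± 0.43 (edgeR adjusted p = 0.00442), and it lost the call when nuclei with markers of another class were left out (edgeR adjusted p = 0.0761). Ism1 was at -5.16 ± 0.78 (edgeR adjusted p = 0.00442), with 22.2, 14.2 and 22.02 CPM in PBS_Vehicle and 67.3, 30.95 and 73.3 in PBS_NVP-BHG712 beside the bleomycin values above. Hs6st3, a heparan sulfate sulfotransferase, was at -4.55 ± 0.71 (edgeR adjusted p = 0.00615), with 18.3, 17.7 and 44.05 CPM in PBS_Vehicle, 86.4, 129 and 233 in PBS_NVP-BHG712, 90.8, 136 and 99.3 in Bleo_Vehicle and 63.9, 27.1 and 13.4 in Bleo_NVP-BHG712. In both Ism1 and Hs6st3 the inhibitor group stood higher than its vehicle group with PBS and lower with bleomycin. Ism1 was called in 18 of 21 alternatives, and lost the call with the stricter gate, at 1000 UMIs and at no more than 1% mitochondrial UMIs. Hs6st3 was called in 19 of 21. Their levels in other nuclei were 5.59 and 5.94 times those in aerocyte nuclei, and the part of RNA from other nuclei was not tested. The count was 114 when PBS_Vehicle 1 was left out, 27 when PBS_NVP-BHG712 2 was, and 23 and 29 when Bleo_Vehicle 1 and 3 were.

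Ephb4, the target of the inhibitor, stood at 54.2, 42.6 and 29.4 CPM in PBS_Vehicle, 46.5, 25.8 and 12.9 in PBS_NVP-BHG712, 97.3, 66.3 and 39.3 in Bleo_Vehicle and 27.4, 36.1 and 31.3 in Bleo_NVP-BHG712. The bleomycin groups did not overlap, as for 22.6% of all tested genes, and the log2 difference of -0.92 ± 0.48 did not pass the test (edgeR adjusted p = 0.392). Efnb2 stood at 263, 344 and 162 CPM in PBS_Vehicle, 222, 235 and 121 in PBS_NVP-BHG712, 129.7, 183 and 176 in Bleo_Vehicle and 201, 249.7 and 134 in Bleo_NVP-BHG712, and its log2 difference between the bleomycin groups was 0.23 ± 0.31 (edgeR adjusted p = 0.817). Neither gene was called in 23 alternatives of that comparison. Of the 7 testable Eph and ephrin genes 0 were called by edgeR in any comparison between groups, with 1 at an unadjusted p under 0.05 and a median of -0.08 for Bleo_NVP-BHG712 against Bleo_Vehicle. Over all 5229 genes, 1.40% were called in that comparison, 0.306% for Bleo_Vehicle against PBS_Vehicle and 0.229% for the interaction. The other comparisons between groups called 0%. At such shares, the lack of a call in a short list says little about that list. The VEGF, Notch, BMP and TGF-beta, angiopoietin and Tie, flow and barrier, leukocyte adhesion, basement membrane, p53 and interferon lists likewise gave no call in any of these comparisons. Between the bleomycin groups 4 of 8 VEGF genes and 5 of 14 BMP and TGF-beta genes had an unadjusted p under 0.05, as had 773 of all 5229 genes. In the interaction 7 of those 14 did, as did 555 of the 5229. Of 11 basement membrane genes 10 had a negative difference, none of them called, and 2 had an unadjusted p under 0.05, with a median log2 difference of -0.90 against -0.02 over all genes. Nrp1 came at 0.67 ± 0.19 (edgeR adjusted p = 0.0844) and Piezo2 at 0.90 ± 0.23 (edgeR adjusted p = 0.0577) for Bleo_NVP-BHG712 against Bleo_Vehicle.

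Whether a difference between groups was particular to aerocyte nuclei was tested as a difference of differences against the other endothelial nuclei of the same libraries. Those nuclei were chosen for having no UMI of the 7 selecting genes, whose summed level was lower in Bleo_Vehicle, as given above. The number of aerocyte nuclei that entered the comparator could therefore differ between groups, and the part of this in the differences was not tested. For Bleo_NVP-BHG712 against Bleo_Vehicle, 16 of 4802 genes were called (0.333%), 9 with a more positive and 7 with a more negative difference in aerocyte nuclei, and 454 had an unadjusted p under 0.05. Tln2 stood at 199 to 283 CPM in Bleo_Vehicle and 301 to 524 CPM in Bleo_NVP-BHG712 in aerocyte nuclei and at 45.9 to 79.3 CPM in Bleo_Vehicle and 3.54 to 11.8 CPM in Bleo_NVP-BHG712 in the other endothelial nuclei, a difference of 3.64 ± 0.54 on the log2 scale (edgeR adjusted p = 0.00579). Emp2 stood at 465 to 602 CPM in Bleo_Vehicle and 678 to 816 CPM in Bleo_NVP-BHG712 in aerocyte nuclei and at 83.4 to 112 CPM in Bleo_Vehicle and 5.89 to 44.8 CPM in Bleo_NVP-BHG712 in the others (1.95 ± 0.40, edgeR adjusted p = 0.0433). Within aerocyte nuclei alone neither gene was called (edgeR adjusted p = 0.0756 and 0.48). Pcsk5, a proprotein convertase, stood at 95.8 to 116 CPM in Bleo_Vehicle and 19.3 to 38.9 CPM in Bleo_NVP-BHG712 in aerocyte nuclei and at 196 to 386 CPM in Bleo_Vehicle and 399 to 777 CPM in Bleo_NVP-BHG712 in the others (-3.08 ± 0.51, edgeR adjusted p = 0.0175). Kif26b did not pass this test (4.82 ± 1.36, edgeR adjusted p = 0.223), so its difference was not shown to be particular to aerocyte nuclei. The same holds for Sema6a, Meis1, Fmo1, Adam12, Arap2, Myo6 and Mid2 (edgeR adjusted p = 0.222 to 0.968). Abi3bp passed (1.35 ± 0.24, edgeR adjusted p = 0.0138). Of the genes named as lower, Gria3, Fkbp5, Fn1, C7, Ism1, Cacna1d and Arhgap15 were tested and did not pass (edgeR adjusted p = 0.0617 to 0.937). The count was 26 when PBS_Vehicle 1 was left out, 25 for PBS_Vehicle 2, 25 for PBS_NVP-BHG712 1, 6 for Bleo_Vehicle 1, 1 for Bleo_NVP-BHG712 1 and 0 for Bleo_NVP-BHG712 3.

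For Bleo_Vehicle against PBS_Vehicle, 0 of 4802 genes (0%) differed in this way by edgeR, with 363 at an unadjusted p under 0.05; the count was 17 when PBS_Vehicle 1 was left out, 1 for PBS_NVP-BHG712 1 and 9 for Bleo_Vehicle 3. Against general capillary nuclei, with 2 libraries per group, 3 of 5310 genes differed (0.0565%), and 183 had an unadjusted p under 0.05. Pcdh7, a protocadherin, was at 3.69 ± 0.68 (edgeR adjusted p = 0.0040) and Pcsk5 at 2.51 ± 0.51 (edgeR adjusted p = 0.034), and Thsd4, a microfibril-associated protein, was at -2.73 ± 0.49 (edgeR adjusted p = 0.0040). Thsd4 stood at 379 ± 23.4 and 363 ± 19.6 CPM (SD, n = 2) in PBS_Vehicle and Bleo_Vehicle aerocyte nuclei and at 39.5 ± 3.36 and 279 ± 129 CPM in general capillary nuclei.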

How the data were processed

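Raw UMI counts per gene and nucleus were used as deposited by the authors, 1 matrix per mouse, made with Cell Ranger (7.2.0 in the file header, 7.0 in the submitters' processing notes, which also name Seurat 4.4.1) on mm10. These count matrices precede the authors' removal of free RNA and doublets and their integration. No doublet caller was run here. The members, gene lists and tests were chosen with earlier results of these data known. Counts were summed over the aerocyte nuclei of a library and tested with edgeR 4.0.16 (R 4.3.3; quasi-likelihood F-test with robust dispersion, filterByExpr, TMM, all 12 libraries in 1 fit, Benjamini-Hochberg, threshold 0.05). Comparisons with other endothelial nuclei used libraries with at least 20 nuclei of both kinds, the library as a block, and left the selecting genes out. Same-numbered PBS_NVP-BHG712 and PBS_Vehicle libraries deviated together from their group means (correlations of 0.552, 0.275 and 0.335 over genes). This hint from the data paired them in a blocked fit, as the labels state no pairing. The labels do give run 1 to both libraries numbered 1 and run 2 to both numbered 2. PBS_Vehicle 3 was of run 2 and PBS_NVP-BHG712 3 of run 3. The part of a shared run in these correlations was not tested. Shares were compared by exact permutation tests over libraries in scipy 1.17.1. The edgeR test between groups was also tried on simulated counts, drawn with the gene means, library sizes and dispersion of the real fit. DESeq2 1.42.0, other filters, gates and library sets were alternatives.

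Genes were named by rule: called, at least 10 CPM on average, no overlap between the groups compared, no mitochondrial, selecting or predicted gene, the 10 largest rises and falls (5 for later comparisons). Genes named between cell types also had the same sign in every library. A gene that met this rule is not reported here. Genes of the pathway lists and Sparc were named from their lists. Counting intervals and the floor of 3 UMIs cover counting error only. Coordinates are those of GENCODE M21 or RefSeq on GRCm38.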

Additional observations from a re-analysis of the deposited data

Results flagged for a closer look

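The inhibitor's difference was not the same with bleomycin as with PBS for 12 genes by the interaction test of edgeR. The genes among them that were not mitochondrial were Kif26b (log2 interaction 3.03), Ism1 (-5.16) and Hs6st3 (-4.55). Ism1 and Hs6st3 were at 5.59 and 5.94 times the aerocyte level in other nuclei.

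The difference between Bleo_NVP-BHG712 and Bleo_Vehicle was not the same in aerocyte and other endothelial nuclei for the following named genes, each given as the aerocyte minus the other log2 difference. It was more positive in aerocyte nuclei for Sirpa (7.27), Tln2 (3.64), Tspan8 (2.05), Slc22a23 (2.02) and Emp2 (1.95). Sirpa had no UMI in the other endothelial nuclei of Bleo_NVP-BHG712, so its fitted size depends on the prior count and is no bound. It was more negative for Pcsk5 (-3.08), Palld (-2.60), Tns1 (-2.05), Ppp1r9a (-1.91) and Emp1 (-1.78). These genes were called in 7 to 12 of 13 alternatives. For the interaction of inhibitor and bleomycin, the same test called Abi3bp (1.82), in 5 of 13 alternatives. The other endothelial nuclei were chosen for having no UMI of the selecting genes, whose level differed between these groups. The part of this choice in the differences was not tested.

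Between Bleo_Vehicle and PBS_Vehicle the difference was not the same in aerocyte and general capillary nuclei for Pcdh7 (3.69), Pcsk5 (2.51) and Thsd4 (-2.73), with 2 libraries per group.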

How the results depend on the processing

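The 73 genes called between Bleo_NVP-BHG712 and Bleo_Vehicle became 152 with only the libraries compared, 167 with DESeq2, 402 with no filter, 40 with a stricter gate, 33 without nuclei that carried markers of another class, 14 without mitochondrial genes and 35 at no more than 1% mitochondrial UMIs, and 11 to 131 with 1 library left out. The count stayed within 1.5 times under RLE size factors, thinning and removal of genes higher elsewhere (73, 72 and 72). The 16 genes called between Bleo_Vehicle and PBS_Vehicle became 61 with DESeq2, 180 with no filter, 1 without mitochondrial genes, 9 at no more than 1% mitochondrial UMIs and 10 to 49 with 1 library left out. The 12 interaction genes became 76, 230, 19 with the stricter gate, 19 after thinning, 3 without mitochondrial genes and 9 to 114. For PBS_NVP-BHG712 against PBS_Vehicle DESeq2 called 1 gene and no filter gave 3, and for Bleo_NVP-BHG712 against PBS_NVP-BHG712 no filter gave 43. Aerocyte against general capillary nuclei gave 554 calls with PBS_Vehicle alone and 2115 against other endothelial nuclei. The difference of differences gave 7 without a filter for general capillary nuclei, and with 1 library left out 0 to 26 (Bleo_NVP-BHG712 against Bleo_Vehicle) and 0 to 17 (Bleo_Vehicle against PBS_Vehicle) for other endothelial nuclei. The cause of these changes was not tested.

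Differences in share changed sign. With 1 library left out they ran from -1.85 to 0.0843 points for Bleo_Vehicle against PBS_Vehicle, -0.377 to 1.83 for PBS_NVP-BHG712 against PBS_Vehicle and -1.55 to 0.150 for Bleo_NVP-BHG712 against PBS_NVP-BHG712. The last was also 0.0426 after thinning to 500 UMIs. It was 0.563 when aerocyte nuclei with other-class markers were not counted, still as a share of all passing nuclei. As a share of nuclei with at least 2 pan-endothelial UMIs it was 2.52, and bleomycin against PBS was 0.541 on that denominator. Efnb2 between the bleomycin groups was at -0.0232 without nuclei with other-class markers, and from -0.0381 to 0.48 with 1 library left out.

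With the replicate number as a block the calls became 206, 75, 1 and 94 (Bleo_NVP-BHG712 against Bleo_Vehicle, Bleo_Vehicle against PBS_Vehicle, Bleo_NVP-BHG712 against PBS_NVP-BHG712 and the interaction). In these comparisons at least 1 same-numbered pair of libraries correlated at under 0.1 in its deviations, so the numbers were not taken as pairing, although 11 of 12 libraries correlated best with their own number. The block changed no call between PBS_NVP-BHG712 and PBS_Vehicle, where it gave 0 calls and 94 genes at an unadjusted p under 0.05. Against general capillary nuclei, Bleo_NVP-BHG712 and Bleo_Vehicle could not be compared, and the stricter gate could not be run, for want of nuclei. Thinning left at least 20 nuclei of both kinds only in PBS_Vehicle 1, PBS_NVP-BHG712 1 and Bleo_Vehicle 3, and the result of that fit is not given. No library was left out in turn for that comparator.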
